A study of Mus musculus with 12 samples.

Results

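Genes of iron uptake, storage and export were read in whole bone marrow of mice lacking the Fanconi anemia genes Fancc, Fancg or both. The set held 10 genes of the 18193 with their own probe sets on the array. They were the genes Tfrc, Slc11a2, Steap3, Slc25a37, Abcb10, Glrx5, Fth1, Slc40a1, Aco1 and Ireb2, and were found by gene symbol as the probe sets annotated to exactly 1 of these names. All 10 passed the filter on dim signals (above the array median on at least 3 arrays), and they had 26 probe sets, of which 22 passed it. Marrow flushed from tibia and femur, neither fractionated nor cultured, came from 3 Fancc-/- mice, 3 Fancg-/- mice, 3 double-knockout mice (Fancc-/- with Fancg-/-) and 3 wild-type C57Bl/6 mice. As the series describes it, each mouse gave 1 array on an Affymetrix mouse chip, and no RNA was pooled. The labels give no treatment, age or sex, and name no strain for the knockouts. Values are log2 signals per probe set, so a difference of 1 is a doubling of signal. Differences were tested with limma, a moderated linear model fitted over all genes, and a gene is called where the p adjusted over all of them is below 0.05.

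Iron reaches the erythroblast bound to transferrin. The transferrin receptor carries it into endosomes, where it is reduced and passed to the cytosol, and most of it then enters the mitochondrion for heme and iron-sulfur clusters. Surplus iron is held in ferritin or leaves through ferroportin, which in marrow is prominent on macrophages that recycle red cells. A pair of iron regulatory proteins bind the messenger RNAs of several of these genes when iron is short, so transcript levels are only part of their control. The Fanconi proteins Fancc and Fancg are parts of the core complex needed to mend crosslinked DNA.

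Array medians ran from 4.79 to 4.87. Fancg averaged 6.40 ± 0.35 in Fancg-/-, 5.74 ± 0.11 in the double knockout and 6.84 ± 0.03 in wild type (SD, n = 3 each). It fell by 1.10 in the double knockout (limma adjusted p = 0.0105) and was at -0.44 in Fancg-/- (0.567). Fancc averaged 6.06 ± 0.11 in Fancc-/-, 5.79 ± 0.22 in the double knockout and 6.04 ± 0.14 in wild type, so its probe set was not lower in Fancc-/-. Whether either probe set reads the deleted exons is not given in the sources used here, so neither settles the genotype labels. The Y-linked Eif2s3y was between 2.94 and 3.30 in Fancc-/-, between 8.81 and 9.35 in the double knockout and between 2.89 and 3.20 in wild type. In Fancg-/- it was 7.64, 9.09 and 5.78 and Xist was 11.31, 7.34 and 10.75, so replicates 1 and 3 carried both sex-linked marks. Both marks on 1 array are at odds with 1 mouse per array, and their source was not tested. Sex and genotype cannot be told apart in comparisons that use the double knockout or Fancg-/-, whereas Fancc-/- and wild type had the same marks. In unfractionated marrow, fewer cells of a type and less RNA per cell cannot be told apart.

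Glrx5 was the only member called in more than 1 comparison with wild type, and Fth1 was the only other member called, each gene being read from its brightest probe set. The bases before their start sites are shown because these are the genes with called rises; of the 10 members, 7 had such a window in RefSeq (GRCm38.p6), 12 windows in all. Each sequence is the 250 bases before an annotated start, 5′ to 3′ on the gene's strand, and capitals mark CCAAT or its complement ATTGG. The Glrx5 window is chr12:105032368-105032617 on the + strand, and that of Fth1, from the second of its annotated starts, is chr19:9982396-9982645 on the + strand. The window of the other Fth1 start, chr19:9980350-9980599, held no CCAAT and is not shown.
Glrx5: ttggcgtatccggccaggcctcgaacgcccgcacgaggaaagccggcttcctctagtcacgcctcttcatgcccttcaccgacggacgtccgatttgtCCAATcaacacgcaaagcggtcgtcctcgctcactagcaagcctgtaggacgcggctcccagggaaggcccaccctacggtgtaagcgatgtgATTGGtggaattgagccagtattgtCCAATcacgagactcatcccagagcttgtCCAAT
Fth1: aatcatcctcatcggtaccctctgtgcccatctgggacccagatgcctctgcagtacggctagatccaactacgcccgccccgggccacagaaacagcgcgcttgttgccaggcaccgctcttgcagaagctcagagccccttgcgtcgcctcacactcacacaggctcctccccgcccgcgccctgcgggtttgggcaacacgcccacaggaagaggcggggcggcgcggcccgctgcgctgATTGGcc
The Glrx5 window held CCAAT 4 times over both strands, the most among the 12 windows of the members. Of the 32851 mouse windows of this length, 0.84% matched or exceeded that count. The count compared was taken from this highest window, so the share is no test. CCAAT stood at least once in 33.8% of all windows, and in 4 of the 12 windows of the members. The GATA motif, NGATAN with A or T first and A or G last, was searched on both strands. It stood in neither sequence shown and in 1 of the 12 windows, of Steap3, against 26.5% of all windows, and no window of a member held both motifs. A match describes letters only.

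Genes of the mitochondrial end of the iron route were read first. Glrx5 encodes a glutaredoxin that hands on iron-sulfur clusters and is needed for heme synthesis in erythroblasts. Its log2 signal was 12.15, 12.06 and 11.81 in Fancc-/-, 11.65, 11.71 and 11.64 in Fancg-/-, 11.98, 11.72 and 11.85 in the double knockout, and 11.32, 11.11 and 11.02 in wild type. All 9 knockout arrays thus lay above every wild-type array, and the order of the means was Fancc-/- (12.01 ± 0.18), double knockout (11.85 ± 0.13), Fancg-/- (11.67 ± 0.04) and wild type (11.15 ± 0.16; SD, n = 3 each). The ranges of Fancc-/- and the double knockout overlapped, whereas those of the double knockout and Fancg-/- were apart by less than their spread.

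Glrx5 rose in Fancc-/- against wild type, by 0.86 ± 0.11 (SE) on the log2 scale, or 1.82-fold (limma adjusted p = 0.00213). It was the only member called there, 1 of 10, where 2.18% of the 11906 genes tested rose. It rose in the double knockout as well, by 0.70 ± 0.11, or 1.63-fold (adjusted p = 0.0116). In Fancg-/- it was higher by 0.52 ± 0.11, which missed the threshold (adjusted p = 0.166). The double-knockout value was smaller than the sum of both single-knockout values by 0.68 ± 0.16, and this interaction did not pass (adjusted p = 0.107). In the double knockout the adjusted p was 0.0608 with wild-type replicate 2 left out, 0.0564 with wild-type replicate 3 left out and 0.0609 with double-knockout replicate 3 left out, so each ended the call. So did the fit without variance moderation (0.0536). With Xist as a covariate Glrx5 was not called either (adjusted p = 1), but 0 of all genes were called in that comparison. Xist ran from 5.99 to 7.39 in the double knockout and from 11.30 to 12.23 in wild type. That fit therefore cannot tell sex from genotype and says nothing particular to Glrx5.

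Among genes that are no members, those nearest to Glrx5 over the 12 arrays were Bola3, Nudt9 and Marchf5. Nearness was the root mean square difference of log2 values after each gene's mean was removed, and it was 0.09 for Bola3, 0.09 for Nudt9 and 0.10 for Marchf5, where the SD of Glrx5 itself was 0.36. The measure describes the pattern over these arrays, which share their genotypes.

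Slc25a37 encodes mitoferrin 1, the iron importer of the erythroid mitochondrial inner membrane. It read 11.85, 12.05 and 11.54 in Fancc-/-, 11.55, 11.63 and 11.16 in Fancg-/-, 12.13, 10.75 and 10.80 in the double knockout, and 11.21, 11.13 and 11.00 in wild type. Every Fancc-/- array was above every wild-type array, while the double knockout held the highest array of the 12 and the lowest ones. The difference from wild type was 0.70 ± 0.30 (SE) in Fancc-/- (limma adjusted p = 0.221), 0.33 ± 0.30 in Fancg-/- (0.929) and 0.11 ± 0.30 in double-knockout mice (0.863), and none passed.

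Double-knockout replicate 1 decided the values of Slc25a37 that involve the double knockout. Without that array Slc25a37 fell by 1.04 in the double knockout against Fancc-/- (limma adjusted p = 0.00346, with 1283 of all genes then called in place of 1). The fall against Fancg-/- was then 0.67 (0.0294, with 995 of all genes called in place of 0). With that array the differences were -0.59 ± 0.30 (SE) and -0.22 ± 0.30. Without double-knockout replicate 2 or 3 in its place they were -0.35 and -0.37 against Fancc-/- and 0.02 and 0.00 against Fancg-/-. Against wild type the double-knockout difference was -0.34 without replicate 1, 0.35 without replicate 2 and 0.33 without replicate 3. That array also had the highest mean of the erythroid markers in its group, 10.63 against 9.85 and 10.03; the part of this in the result was not tested.

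Abcb10 encodes an ABC transporter of the mitochondrial inner membrane that is induced during erythroid maturation and stabilises mitoferrin 1. The brightest of its 3 probe sets read 9.85, 9.88 and 9.37 in Fancc-/-, 8.53, 7.94 and 9.36 in Fancg-/-, 9.78, 8.70 and 7.17 in the double knockout, and 9.23, 8.89 and 8.78 in wild type. Fancc-/- lay wholly above wild type, and the other knockouts were the most scattered of any member, with an SD of 1.31 in the double knockout, 0.71 in Fancg-/- and 0.24 in wild type. On the other probe sets double-knockout replicate 3 was again the lowest of all 12 arrays, at 5.84 and 4.98. Fancg-/- replicate 2 was low on the next brightest, at 6.97 against 8.09 to 8.55 in wild type, but on the dimmest its 5.68 lay within the wild-type range.

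None of the Abcb10 differences from wild type passed. They were 0.73 ± 0.52 (SE) in Fancc-/- (limma adjusted p = 0.470), -0.35 ± 0.52 in Fancg-/- (0.967) and -0.42 ± 0.52 in double-knockout mice (0.690). Against Fancc-/-, the double knockout was lower by 1.15 on the log2 scale (adjusted p = 0.252), by 1.77 (0.0284) without double-knockout replicate 1 and by 0.46 (0.626) without replicate 3. Leaving out replicate 1 moved the calls over all genes there from 1 to 1283. Against wild type the double-knockout difference was -1.03 without replicate 1 and 0.27 without replicate 3, so its direction on this probe set rests on replicate 3. In Fancg-/- it was -0.02 without replicate 2 and -0.73 without replicate 3. The direction also varied with the probe set. The next brightest gave -0.59 ± 0.66 in the double knockout and -0.48 ± 0.66 in Fancg-/-, the dimmest 0.14 ± 0.31 and 0.06 ± 0.31. Over all alternatives the double-knockout difference ran from -1.03 to 1.43.

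**Figure D1:**
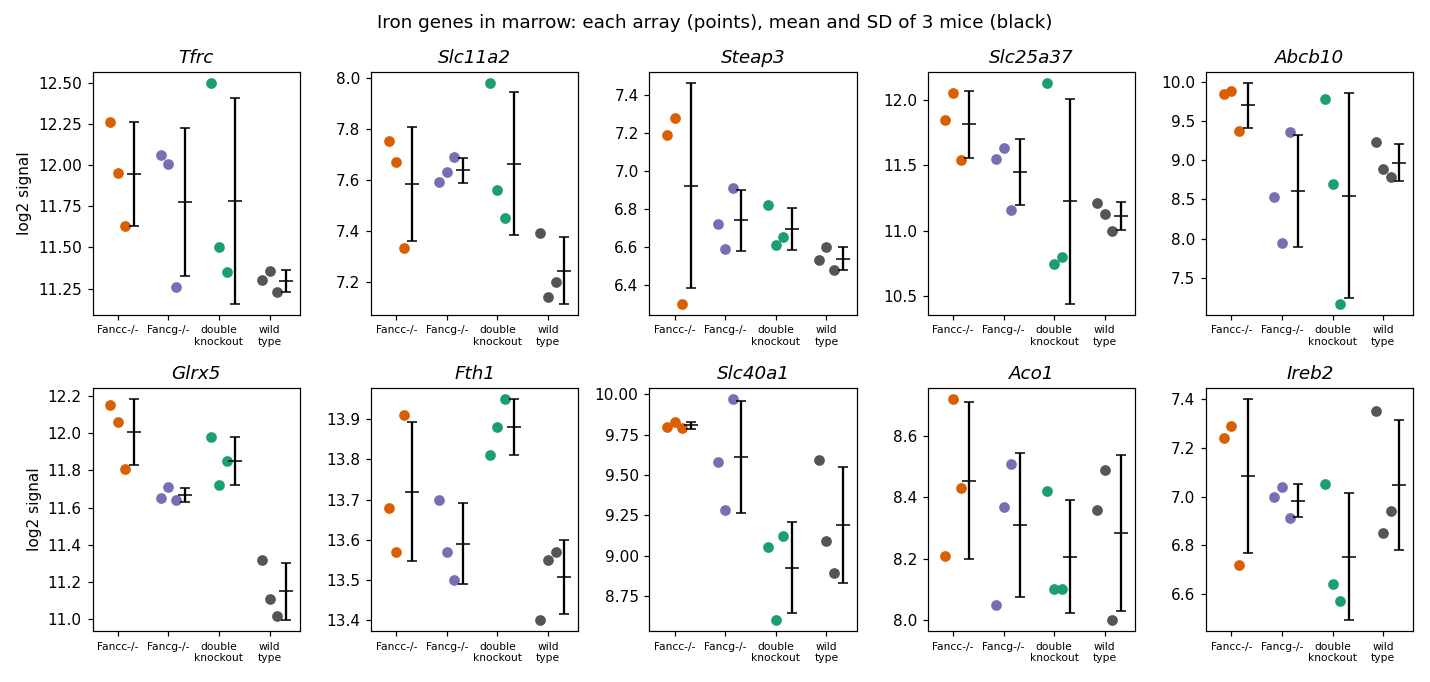
Log2 signal (y axis) of each of the 10 iron genes by genotype (x axis), with a point per array and, beside the points, the mean with the SD of 3 mice. Glrx5 is above wild type on all 9 knockout arrays, and Abcb10 is scattered most in the double knockout. Slc40a1 in Fancc-/- spans only 0.05 on its brightest probe set, the one shown. The y axes differ between panels and do not start at 0.

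Iron uptake genes came next. Tfrc encodes transferrin receptor 1, the entry of transferrin-bound iron. It had 6 probe sets, with means over the 12 arrays from 7.00 to 11.70, and 3 of them are array controls placed toward the 3′ end, the middle and the 5′ end of the transcript. On the brightest, the signal was 12.26, 11.95 and 11.63 in Fancc-/-, 12.06, 12.01 and 11.26 in Fancg-/-, 12.50, 11.50 and 11.35 in the double knockout, and 11.30, 11.36 and 11.23 in wild type. Fancc-/- was wholly above wild type on it, whereas Fancg-/- replicate 3, the array made from less RNA (0.91 µg against 2 µg), and double-knockout replicate 3 lay within the wild-type range.

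The dimmer Tfrc probe sets spread the arrays further apart than the brightest did. On the 5′ control, values were 8.19, 5.87 and 7.25 in Fancc-/-, 7.74, 7.51 and 6.49 in Fancg-/-, 8.60, 7.43 and 6.52 in the double knockout, and 6.43, 5.40 and 6.56 in wild type. Fancc-/- replicates 1 and 3, Fancg-/- replicates 1 and 2, and double-knockout replicates 1 and 2 exceeded every wild-type array on all 6 probe sets. Fancc-/- replicate 2 and Fancg-/- replicate 3 did so on 1 of 6, and double-knockout replicate 3 on 2 of 6.

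No Tfrc probe set passed in any comparison with wild type, and every difference was above 0. In Fancc-/- they ran from 0.65 ± 0.29 to 1.12 ± 0.49 (SE), with the smallest limma adjusted p = 0.248 in a fit over all 20566 probe sets tested. In Fancg-/- they ran from 0.48 ± 0.29 to 1.17 ± 0.56 (smallest adjusted p = 0.788) and in the double knockout from 0.49 ± 0.29 to 1.48 ± 0.56 (smallest adjusted p = 0.133). On the brightest probe set the value was 0.13 in the double knockout without its replicate 1, and 0.74 in Fancg-/- without its replicate 3. The 3′ control exceeded the 5′ control by 2.20 ± 0.30 in Fancc-/-, 2.04 ± 0.07 in Fancg-/-, 1.91 ± 0.21 in the double knockout and 2.20 ± 0.26 in wild type (SD, n = 3 each). This gap, a sign of how complete the amplified RNA was, was widest in Fancc-/- replicate 2 (2.53) and wild-type replicate 2 (2.50), the arrays with the lowest 5′ control signal in their groups. Its part in the Tfrc values was not tested.

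**Figure D2:**
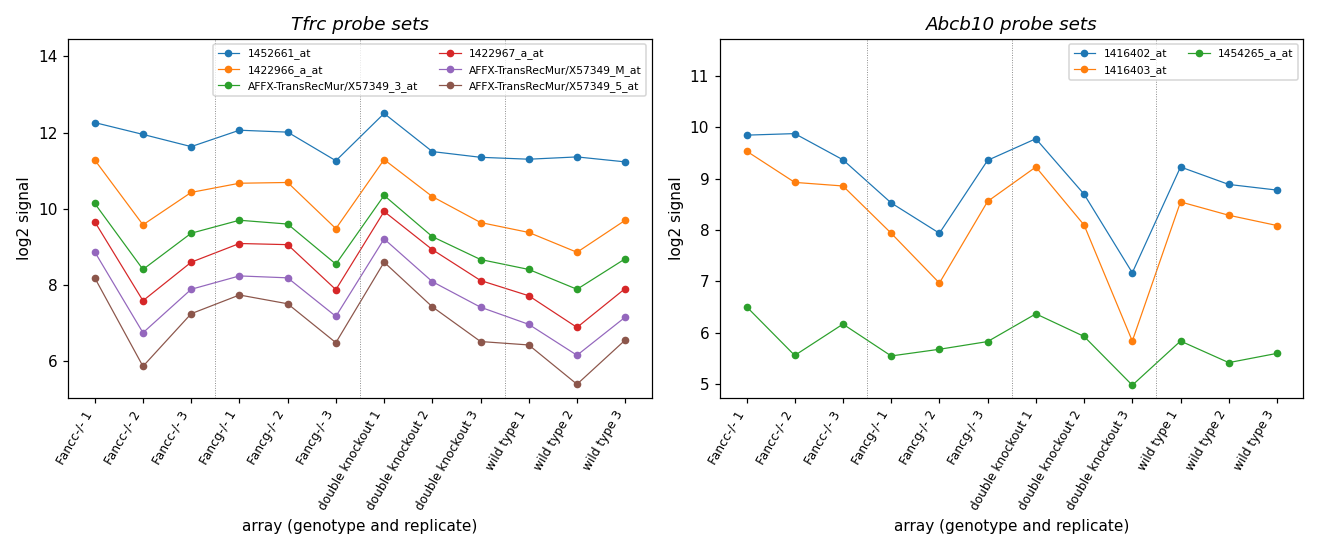
Log2 signal (y axis) of the 6 Tfrc and the 3 Abcb10 probe sets on each of the 12 arrays (x axis, grouped by genotype), with lines joining a probe set's points only to guide the eye. The Tfrc probe sets are all highest on double-knockout replicate 1, and double-knockout replicate 3 is the lowest array on every Abcb10 probe set.

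Slc11a2 encodes divalent metal transporter 1, which moves ferrous iron out of the endosome. Its brightest probe set read 7.75, 7.67 and 7.33 in Fancc-/-, 7.59, 7.63 and 7.69 in Fancg-/-, 7.98, 7.56 and 7.45 in the double knockout, and 7.39, 7.14 and 7.20 in wild type. Fancg-/- and the double knockout lay wholly above wild type, and Fancc-/- overlapped it on replicate 3. The differences were 0.34 ± 0.16 (SE) in Fancc-/- (limma adjusted p = 0.262), 0.39 ± 0.16 in Fancg-/- (0.642) and 0.42 ± 0.16 in double-knockout mice (0.134).

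Another Slc11a2 probe set, the dimmest of those tested, passed where the other tested probe sets did not. It read 6.22, 5.88 and 5.60 in Fancc-/-, 5.36, 5.29 and 5.66 in Fancg-/-, 5.93, 5.56 and 5.75 in the double knockout, and 5.14, 5.11 and 4.91 in wild type, so every knockout array was above wild type. In the fit over all probe sets it rose in Fancc-/- by 0.85 ± 0.17 (SE; limma adjusted p = 0.0188), where 1.68% of probe sets rose, and in the double knockout by 0.69 ± 0.17 (adjusted p = 0.0462), where 1.83% rose. In Fancg-/- it was at 0.38 ± 0.17 (adjusted p = 0.747). The remaining tested probe set gave 0.30 ± 0.19 in Fancc-/- (0.432), 0.39 ± 0.19 in Fancg-/- (0.795) and 0.23 ± 0.19 in double-knockout mice (0.513). The gene as a whole was therefore called or not according to the probe set, and 1 of its 4 probe sets was too dim to test.

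Steap3 encodes the ferrireductase of the erythroblast endosome. It read 7.19, 7.28 and 6.30 in Fancc-/-, 6.72, 6.59 and 6.91 in Fancg-/-, 6.82, 6.61 and 6.65 in the double knockout, and 6.53, 6.60 and 6.48 in wild type. Fancc-/- replicate 3 was the lowest array of the 12 and the other Fancc-/- arrays the highest. The difference of 0.39 ± 0.22 (SE) in Fancc-/- did not pass (limma adjusted p = 0.348), and it was 0.25 without Fancc-/- replicate 1, 0.21 without replicate 2 and 0.70 (adjusted p = 0.0116) without replicate 3. It was 0.21 ± 0.22 in Fancg-/- and 0.16 ± 0.22 in the double knockout, and the other 2 of its 3 probe sets were too dim to test.

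Storage was read from Fth1, the ferritin heavy chain, whose ferroxidase activity lets iron enter the ferritin shell. Fth1 was among the brightest signals, near the top of the scale, and transcripts of near-identical pseudogenes could add to it. It read 13.68, 13.57 and 13.91 in Fancc-/-, 13.70, 13.57 and 13.50 in Fancg-/-, 13.81, 13.88 and 13.95 in the double knockout, and 13.40, 13.55 and 13.57 in wild type. The double knockout was wholly above wild type and Fancg-/-, and it overlapped Fancc-/- on the replicate 3 reading of that group.

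Fth1 rose in the double knockout against wild type by 0.37 ± 0.09 (SE), or 1.30-fold (limma adjusted p = 0.0351). With Glrx5 it made 2 of 10 members risen there, where 2.27% of all genes tested rose. Its other probe set gave 0.44 ± 0.12, which missed the threshold in the fit over all probe sets (adjusted p = 0.0606). The differences were 0.21 ± 0.09 in Fancc-/- (adjusted p = 0.202) and 0.08 ± 0.09 in Fancg-/- (0.952). The call was lost without any wild-type replicate (adjusted p from 0.0884 to 0.0988), without double-knockout replicate 2 (0.117) or 3 (0.148) and without Fancg-/- replicate 2 (0.0544). The genes nearest to it by the same measure were Gtf2h1 (0.07), Etf1 (0.07) and Rfx2 (0.08), where the SD of Fth1 was 0.18.

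**Figure D3:**
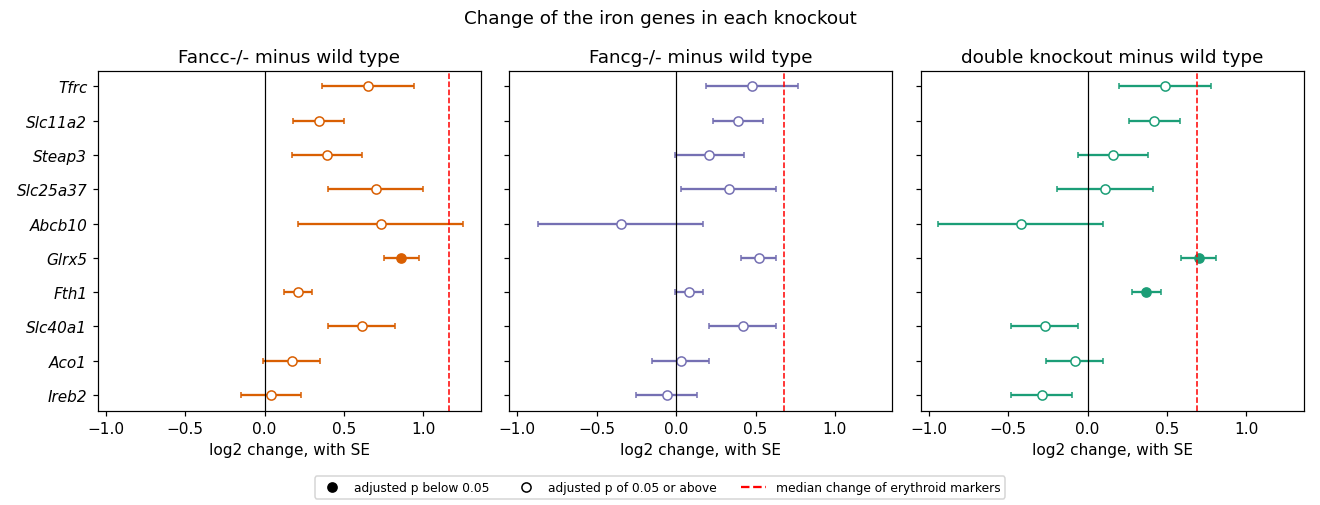
Log2 change from wild type (x axis) of each iron gene (rows) in Fancc-/-, Fancg-/- and the double knockout, with bars for the SE. Filled points are the 3 calls: Glrx5 in Fancc-/-, and Glrx5 and Fth1 in the double knockout. The dashed line is the median change of the erythroid markers, 1.16, 0.68 and 0.69.

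Export was read from Slc40a1, which encodes ferroportin, the exporter of cellular iron. It read 9.80, 9.83 and 9.79 in Fancc-/-, 9.58, 9.28 and 9.97 in Fancg-/-, 9.05, 8.60 and 9.12 in the double knockout, and 9.59, 9.09 and 8.89 in wild type. On this, the brighter of its probe sets, Fancc-/- was above every wild-type array, within a span of 0.05 before rounding. The double knockout lay below every array of either single knockout. The differences from wild type were 0.61 ± 0.21 (SE) in Fancc-/- (limma adjusted p = 0.131), 0.42 ± 0.21 in Fancg-/- (0.761) and -0.27 ± 0.21 in double-knockout mice (0.485). The Fancg-/- value was 0.24 without Fancg-/- replicate 3 and 0.27 without wild-type replicate 3. The double-knockout value was -0.11 without its replicate 2, -0.07 without wild-type replicate 1 and -0.42 without wild-type replicate 3.

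Between the knockouts, the log2 difference of Slc40a1 was -0.88 ± 0.21 (SE; limma adjusted p = 0.0845) for the double knockout against Fancc-/- and -0.69 ± 0.21 (adjusted p = 0.208) for it against Fancg-/-. Neither passed. Arrays of the double knockout lay wholly below Fancc-/- for 9.1% of genes and wholly below Fancg-/- for 10.5%. The interaction was -1.30 ± 0.30 (adjusted p = 0.110), the largest in size of the 10 members. Without double-knockout replicate 1 the difference from Fancc-/- was -0.94 (adjusted p = 0.0299) and the interaction -1.36 (0.0370). Calls over all genes then went from 1 to 1283 and from 1 to 594. With each array left out in turn, the difference ran from -0.98 to -0.72 and the interaction from -1.50 to -1.12. Only that omission gave a call. The second Slc40a1 probe set gave 0.47 ± 0.21 in Fancc-/-, 0.40 ± 0.21 in Fancg-/- and -0.12 ± 0.21 in double-knockout mice against wild type. It read 9.23, 8.81 and 9.24 in Fancc-/-, so Fancc-/- replicate 2 lay below wild-type replicate 1 at 8.98.

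Markers of macrophages, on which ferroportin is prominent, were set beside Slc40a1. The mean log2 signal of the 12 measured markers was 7.58, 7.62 and 7.94 in Fancc-/-, 8.04, 7.39 and 7.89 in Fancg-/-, 7.15, 7.23 and 7.35 in the double knockout, and 7.63, 6.86 and 7.22 in wild type. Against wild type the median marker was at 0.50 in Fancc-/-, 0.31 in Fancg-/- and 0.14 in double-knockout mice, with an interaction of -1.18. Of the 12, 1 rose in Fancc-/-, where 2.18% of all genes did. There 8 of 12 were at an unadjusted p below 0.05, against 19.8% of all genes. These 8 went both ways. Adgre1 (-0.87), Csf1r and Cd68 were lower, and C1qa, C1qb, C1qc, Mrc1 and Cd5l were higher. Limma called 0 in Fancg-/- (4 at an unadjusted p below 0.05, against 7% of all genes) and 0 in the double knockout (1, against 24.2%). The gene that rose was Cd5l, and the 8 were named after their values were seen. The summed linear signal of the list, which its brightest genes dominate, ran from 4740 to 5560 in Fancc-/-, 6310 to 7170 in Fancg-/-, 5590 to 6200 in the double knockout and 5710 to 6680 in wild type. Those brightest markers were Csf1r (-0.56 in Fancc-/-), Cd68 (-0.48) and the adhesion molecule Vcam1 (0.32), so the log mean and the sum differ in direction in Fancc-/-. Their part in the Slc40a1 values was not tested.

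The iron regulatory proteins were read last. Aco1 encodes the cytosolic aconitase that serves as iron regulatory protein 1 when it lacks its iron-sulfur cluster, and Ireb2 encodes iron regulatory protein 2, which is degraded when iron is ample. Aco1 read 8.21, 8.72 and 8.43 in Fancc-/-, 8.05, 8.37 and 8.51 in Fancg-/-, 8.42, 8.10 and 8.10 in the double knockout, and 8.36, 8.49 and 8.00 in wild type. Ireb2 read 7.24, 7.29 and 6.72 in Fancc-/-, 7.00, 7.04 and 6.91 in Fancg-/-, 7.05, 6.64 and 6.57 in the double knockout, and 7.35, 6.85 and 6.94 in wild type. All 4 groups overlapped for both genes.

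Aco1 differed from wild type by 0.17 ± 0.18 (SE) in Fancc-/-, 0.03 ± 0.18 in Fancg-/- and -0.08 ± 0.18 in double-knockout mice. Ireb2 differed by 0.04 ± 0.19, -0.06 ± 0.19 and -0.29 ± 0.19 in the same order. None of these passed (smallest limma adjusted p = 0.384), and they were the members with the smallest values in Fancc-/-.

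Across the set, all 10 members were above wild type in Fancc-/-, with a median log2 difference of 0.50 and a range from 0.04 to 0.86, where the median of all genes was -0.011. Of these, 6 had no overlap with wild type, all of them higher, where 11.1% of all genes did. These overlap counts read only the brightest probe set of each gene. On it, the closest Fth1 readings of Fancc-/- and wild type were both 13.57 after rounding. In Fancc-/- another tested probe set of each of Tfrc, Abcb10, Fth1 and Slc40a1 overlapped wild type. In Fancg-/-, 8 of 10 were above wild type with a median of 0.27, against 0.009 over all genes, and 2 of 10 lay wholly above wild type, where 8.68% of genes did. In Fancg-/- limma called 0 of 10 members and 0.0504% of all genes; 2 of 10 members and 7% of all genes were at an unadjusted p below 0.05. In the double knockout 6 of 10 were above wild type with a median of 0.14, against -0.015, and 4 lay wholly above it, where 12.5% of genes did. There 3 of 10 members and 24.2% of all genes were at an unadjusted p below 0.05. In Fancc-/- these were 5 of 10 members and 19.8% of all genes. The comparisons share the wild-type arrays.

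Between the knockouts no member was called by limma. Against Fancc-/-, the double knockout had a median of -0.24 over the members, and 0.0084% of all genes were called. At an unadjusted p below 0.05 stood 2 of 10 members and 19.7% of all genes, a like share. Against Fancg-/- it had a median of -0.06, and 0% of all genes were called; 2 of 10 members and 14.4% of all genes were below 0.05 unadjusted. Fancg-/- against Fancc-/- gave a median of -0.17, and 0.109% of genes were called; 1 of 10 members and 9.04% of genes were below 0.05 unadjusted. For the interaction the median was -0.54, 0.0084% of genes were called, and 2 of 10 members and 14.9% of genes were below 0.05 unadjusted.

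Erythroid markers were higher in all knockouts, and by more than most iron genes. Of 20 measured markers, 17 rose in Fancc-/- and 7 in the double knockout against wild type, where 2.18% and 2.27% of all genes rose. In Fancg-/- limma called 0 of these markers (17 at an unadjusted p below 0.05, against 7% of all genes). Their summed linear signal ran from 48100 to 57700 in Fancc-/-, 35200 to 36900 in Fancg-/-, 31300 to 48900 in the double knockout and 22100 to 28900 in wild type. The brightest were the carbonic anhydrase Car2, the heme enzyme Alas2 and the anion exchanger Slc4a1, at 0.71 ± 0.12, 1.22 ± 0.12 and 0.78 ± 0.16 (SE) in Fancc-/-.

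Set against the erythroid markers, Glrx5 was 1.42 ± 0.06 above their mean in Fancc-/-, 1.55 ± 0.07 in Fancg-/-, 1.68 ± 0.29 in the double knockout and 1.70 ± 0.04 in wild type (SD, n = 3 each). Slc25a37 was 1.22 ± 0.21 above it in Fancc-/-, 1.33 ± 0.16 in Fancg-/-, 1.06 ± 0.39 in the double knockout and 1.66 ± 0.10 in wild type. Tfrc was 1.35 ± 0.11 above it in Fancc-/-, 1.66 ± 0.36 in Fancg-/-, 1.61 ± 0.28 in the double knockout and 1.85 ± 0.18 in wild type. Taking off a mean that is higher in the knockouts lowers most genes there, so these levels are a description with no test. Differences between probe sets are read only from array to array and give no ratio of transcripts. The part of the erythroid markers in the iron gene values was not tested.

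**Figure D4:**
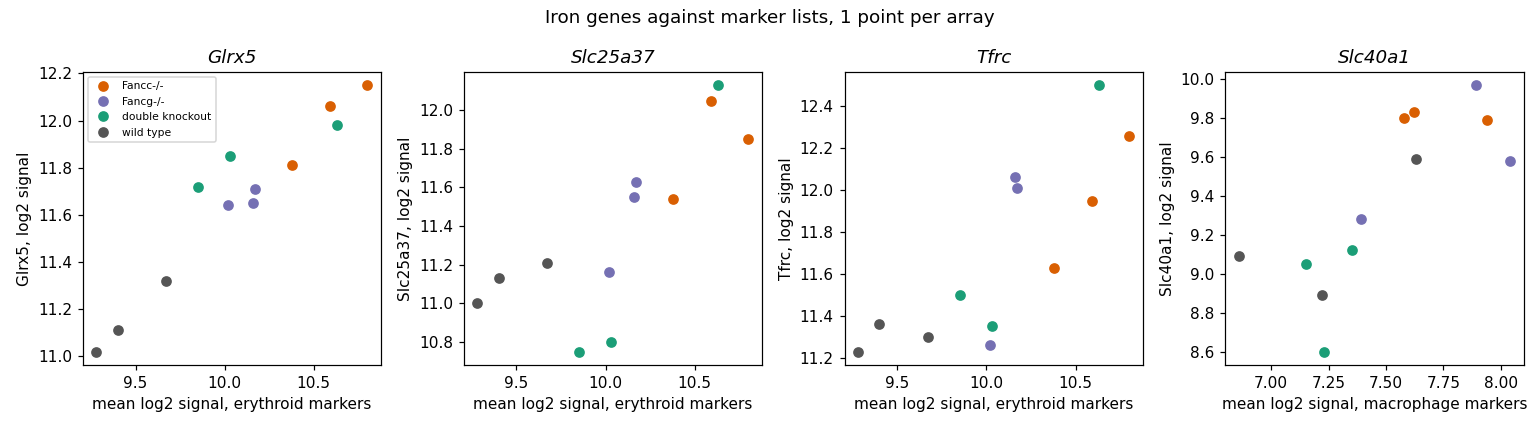
Log2 signal of Glrx5, Slc25a37 and Tfrc (y axes) against the mean log2 signal of the erythroid markers, and of Slc40a1 against that of the macrophage markers (x axes), with a point per array coloured by genotype. The double-knockout arrays at Slc25a37 readings of 10.75 and 10.80 lie below wild type, although their erythroid means of 9.85 and 10.03 lie above it.

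Other genes of iron handling were read from a wider list of 38, of which 24 were tested. In Fancc-/- against wild type 2 of 24 rose, where 2.18% of all genes did, and 0 fell, with a median of 0.10: Slc48a1, a transporter of heme out of endolysosomes (1.09 ± 0.17 SE, limma adjusted p = 0.00482), and Tfr2, the second transferrin receptor, which erythroblasts use to sense iron (0.90 ± 0.15, adjusted p = 0.00760). In the double knockout 1 of 24 rose, near the 2.27% of all genes, and 0 fell, with a median of 0.03; it was Tfr2 (0.69 ± 0.15, adjusted p = 0.0295). In Fancg-/- limma called 0 of 24 (4 at an unadjusted p below 0.05, against 7% of all genes), with a median of 0.12, and the values of smallest p were Tfr2 at 0.43 ± 0.15 and the ferroxidase Cp at 0.91 ± 0.33. Cp read 6.06, 5.16 and 4.53 in Fancg-/- and 4.47, 4.18 and 4.38 in wild type, where it was below the array medians. It passed the filter only through Fancc-/- replicate 3 and Fancg-/- replicates 1 and 2. Its value and its place among the 4 are therefore no support.

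Tfr2 read 8.76, 8.65 and 8.21 in Fancc-/-, 8.11, 8.18 and 7.94 in Fancg-/-, 8.51, 8.19 and 8.32 in the double knockout, and 7.64, 7.65 and 7.65 in wild type. Every knockout array was above every wild-type array, as for Glrx5. Both genes had already been called from these same values, so the lack of overlap adds no support. The share of all genes with no overlap across all knockout arrays together was not counted.

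Iron-sulfur cluster assembly genes other than Glrx5 were 24, of which 19 were tested. In Fancc-/- against wild type 3 of 19 rose, where 2.18% of all genes did, and 0 fell, with a median of 0.09: Bola3, a partner of glutaredoxins (0.78 ± 0.13 SE, limma adjusted p = 0.00687), the scaffold Isca1 (0.66 ± 0.14, 0.0252) and the co-chaperone Hscb (0.60 ± 0.14, 0.0360). In the double knockout 4 of 19 rose, where 2.27% of all genes did, and 0 fell, with a median of 0.26: Bola3 (0.75 ± 0.13, 0.0160), the cytosolic assembly factor Ciapin1 (0.65 ± 0.14, 0.0279), the sulfhydryl oxidase Gfer (0.45 ± 0.11, 0.0434) and the mitochondrial chaperone Hspa9 (0.60 ± 0.15, 0.0451). In Fancg-/- limma called 0 of 19 (5 at an unadjusted p below 0.05, against 7% of all genes), with a median of 0.17, and the values of smallest p were Bola3 at 0.46 ± 0.13 and Gfer at 0.39 ± 0.11.

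Marker lists of other marrow cells also differed between the groups. Of 11 measured B cell markers, 10 fell in each of Fancc-/- and the double knockout, where 281 and 359 of the 11906 genes tested fell. In Fancg-/- limma called 0 of these markers (11 at an unadjusted p below 0.05, against 7% of all genes). Their median differences from wild type were -2.52 in Fancc-/-, -1.49 in Fancg-/- and -2.26 in double-knockout mice, and the brightest were Cd79a, Cd22 and Ms4a1. In Fancg-/- the mean of the list was 6.46, 6.84 and 8.17, so replicate 3, with less RNA and both sex-linked marks, stood near wild type (8.54 to 9.03). Of 12 neutrophil markers, 2 fell in the double knockout and 0 in either single knockout, with medians of -0.11, 0.01 and -0.07 in Fancc-/-, Fancg-/- and the double knockout. The brightest were S100a9, S100a8 and Ngp, each within 0.10 of wild type. Of 7 stroma markers limma called 0, with medians of 0.43, 1.57 and 0.27 in the same order. At an unadjusted p below 0.05 were 4 in Fancg-/-, against 7% of all genes, and 0 in the other knockouts. The brightest were Col1a2, Sparc and Cxcl12. Mmp13, also among the 7, read 3.84, 3.07 and 2.92 in wild type, below the array medians. It passed the filter only through the Fancg-/- arrays and Fancc-/- replicate 3. The Fancg-/- count and median of this list are therefore no support.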

How the data were processed

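Values were taken as deposited: log2 signals per probe set; the submitters' processing notes name RMA, which normalizes arrays by quantiles and summarizes probes, and Partek, with no versions. Per the labels, amplification was primed with oligo-dT from 2 µg of RNA, except for Fancg-/- replicate 3 (0.91 µg). The table held 45101 probe sets. Those with exactly 1 gene symbol were used, 34945 besides 13 array controls, and 34741 of them matched GRCm38.p6 by Entrez ID. Each of 18193 genes was represented by its brightest probe set, and 11906 genes above the array median (percentile 50) on at least 3 arrays were tested. Precision is limited by 3 arrays per group.

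A linear model over the 12 arrays, a mean per genotype, was fitted with limma 3.58.1 in R 4.3.3 (variance trend, 2-sided, Benjamini-Hochberg over all genes, threshold 0.05) and checked on simulated data. The same fit was run over 20566 single-symbol probe sets. "Called", "rose" and "fell" mean an adjusted p below 0.05. The interaction subtracts both single-knockout changes from that of the double knockout. The p-values measure the spread between these arrays, each described as a separate mouse.

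Named genes are the members and the label checks, up to 4 genes per iron list and comparison past the threshold (or the 2 with the smallest p), the brightest 3 markers of each cell type list, and the 3 genes nearest each called member. Further macrophage and stroma markers were named after their values were seen. Members and lists were chosen with earlier results of these data known. Same-numbered Fancc-/- and wild-type arrays deviated together (correlations over genes of 0.15 to 0.16 for the 3 pairs), with no pairing in the labels; alternatives included the replicate number as a block, filters, probe set choice, scaling, variance models, Xist as a covariate and each array left out.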

Additional observations from a re-analysis of the deposited data

Results flagged for a closer look

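Slc40a1 was marked because loss of Fancc went with opposite shifts in mice with and without Fancg. Against the wild-type mean, the Fancc-/- arrays were higher by 0.59 to 0.64 on the log2 scale (mean 0.61). Against the Fancg-/- mean, the double-knockout arrays were at -1.01 to -0.49 (mean -0.69). The test of the difference itself, the interaction, gave -1.30 ± 0.30 (SE; limma unadjusted p = 0.000979, adjusted p = 0.110) and did not pass. That all 3 arrays of each group moved the same way was the rule that marked this gene, so it adds no support.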

How the results depend on the processing

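Glrx5 in Fancc-/- against wild type was called under all 24 alternatives, with changes from 0.79 to 0.96 and adjusted p from 0.000861 to 0.0196. Its rise in the double knockout was called under 19 of 24 (0.64 to 0.79, adjusted p from 0.0036 to 1), and that of Fth1 under 14 of 23 (0.32 to 0.41, adjusted p from 0.00916 to 1). The count of members called in the double knockout against wild type was 2; it was 1 on probe sets without shared-sequence endings (8 members measured, Fth1 and Slc25a37 not) and 1 without a variance trend. It was 0 without variance moderation and 0 with Xist as a covariate, where 0 of all genes were called in that comparison. With each array left out in turn, members called ran from 0 to 2 in the double knockout, from 0 to 0 in Fancg-/- and from 1 to 2 in Fancc-/- against wild type. They ran from 0 to 3 in the double knockout against Fancc-/-, from 0 to 1 against Fancg-/-, from 0 to 0 between the single knockouts and from 0 to 3 for the interaction. The value of 2 in Fancc-/- came without Fancc-/- replicate 3 (Steap3 added) or double-knockout replicate 1 (Slc25a37 added). The interaction count was 3 without double-knockout replicate 1 (Slc25a37, Glrx5, Slc40a1) and 1 without Fancc-/- replicate 3 (Glrx5). The cause was not tested. Glrx5 in Fancc-/- and Glrx5 and Fth1 in the double knockout, the calls against wild type, kept their direction under every alternative run. Abcb10 in the double knockout against Fancc-/- reached 0.63 with Xist as a covariate, and Slc25a37 against Fancg-/- reached 0.02 without double-knockout replicate 2.

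Counts over all genes moved by more. Against wild type they were 540 in Fancc-/- (170 to 714 under the alternatives), 6 in Fancg-/- (0 to 72) and 629 in the double knockout (0 to 1853); the lowest Fancc-/- count came without wild-type replicate 2 and the highest double-knockout count without double-knockout replicate 1. They were 1 for the double knockout against Fancc-/- (0 to 1283), 0 against Fancg-/- (0 to 995), 13 for the single knockouts (0 to 51) and 1 for the interaction (0 to 594). In Fancc-/-, 259 rose and 281 fell as deposited, 366 and 252 after quantile normalization, and 206 and 319 after median centring.

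With the replicate block, members called against wild type were 2 in the double knockout, 0 in Fancg-/- and 1 in Fancc-/-, and 0 in the other comparisons, so it changed no call of a member. Apart from Fancc-/- with wild type, where 6 of 6 arrays correlated best with their own number, same-numbered arrays did not all deviate together. Those correlations ran from -0.37 to 0.20. Without Fancg-/- replicates 1 and 3, an alternative added after seeing the data, Slc40a1 in Fancg-/- read 0.08 in place of 0.42. That leaves 1 Fancg-/- array, assumed to vary like the other groups, so its 0 called members say nothing on stability.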
